A study of Mus musculus with 223 samples.

Results

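Classical cadherins and non-clustered protocadherins were examined in single Htr3a-GFP+ cortical interneurons (INs) of the developing mouse. Members were every gene whose symbol is Cdh or Pcdh followed by a number, with an optional x, a rule that uses no measured value. It found 35 of the 43629 genes of the count table. By family, 5 members are type I classical cadherins, 13 are type II classical cadherins, 4 are delta-1 and 5 are delta-2 protocadherins. The rule also took 5 cadherins that are not classical (Cdh13, Cdh16, Cdh17, Cdh23 and Cdh26) and 3 protocadherins outside the delta groups (Pcdh12, Pcdh15 and Pcdh20).

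The cells came from the whole cortex of mice that carry a GFP reporter for Htr3a, a serotonin receptor gene of INs that arise largely in the caudal ganglionic eminence, and were sorted for GFP fluorescence. E18 gave 82 cells, which the labels put in no subtype. P2 gave 22 type 1, 31 type 2 and 13 type 3 INs, and P5 gave 34, 19 and 22. The authors drew the 3 types from the same counts, type 1 being the Meis2-enriched one, so a type set against the others is a description and not a test. No group carried a treatment or a mutation. Each age was 1 pool of brains and therefore 1 sample, no p-value is given, and intervals cover counting error only.

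Each cell had 3707601 to 15840130 mapped read pairs (median 9463033). Interneuron markers (Gad1, Gad2, the Dlx genes and Htr3a itself) were measured as a list of 7, of which Dlx2 had no read in P2 type 3 INs and Dlx6 exceeded 10 RPM in none of those cells. Between 9 of 13 and 33 of 34 cells per group held at least 3 of the list. In 18 cells at least 3 genes of a list of another cell type exceeded 10 RPM (read pairs per 1000000 mapped pairs of the cell). Of these, 12 were at E18 and 5 among P5 type 2 INs. At E18 the genes were those of excitatory neurons, and in 1 cell also those of astrocytes or radial glia. Neurod6, one of the excitatory neuron genes, stood at a pooled 102.2 RPM at E18 and below 1 RPM in each P5 type. At E18, 63 of 82 cells exceeded 10 RPM for Lhx6, Sst, Sox6 or Nkx2-1, genes of INs of the medial ganglionic eminence (MGE), against 15 of the 66 P2 cells and 4 of the 75 P5 cells. Their pooled sum was 596 RPM at E18 and between 2.63 and 17.6 RPM in the P5 types. All P2 cells bear 1 library set label (A) and the E18 and P5 cells bear 3 others (B, C and D), so P2 and its set cannot be told apart.

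Classical cadherins are calcium-dependent adhesion molecules that bind like molecules on the neighbouring cell and reach the actin cytoskeleton through beta- and alpha-catenin. Type II cadherins are the more varied branch, and their combinations are known to sort neurons into nuclei, layers and circuits. Delta protocadherins adhere more weakly, do not bind beta-catenin in the classical way, and those of the delta-2 group recruit the WAVE complex, which nucleates branched actin. Both families are known for roles in axon growth, synapse specificity and neuronal migration, including that of INs into the cortex.

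Promoter windows were available for 22 of the 35 members in a RefSeq table (GRCm38.p6). The 250 bases before the start are shown for the 4 members with the largest folds among those with an entry (Pcdh18, Pcdh19, Pcdh20, whose fold is against a group with no read, and Pcdh10) and for Pcdh9, the one member at least 2-fold higher in type 1 INs at both postnatal ages. Each is given 5′ to 3′ on the strand of the gene, with the letters CCAAT or their reverse complement in capitals. CCAAT is the core of a common promoter element, looked for on both strands.
Pcdh18 (minus strand, chr3:49757317-49757566): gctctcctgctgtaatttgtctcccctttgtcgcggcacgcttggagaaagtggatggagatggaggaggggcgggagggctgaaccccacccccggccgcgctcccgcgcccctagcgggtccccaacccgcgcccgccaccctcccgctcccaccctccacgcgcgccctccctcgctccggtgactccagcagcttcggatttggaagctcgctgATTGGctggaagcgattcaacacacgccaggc
Pcdh19 (minus strand, chrX:133688994-133689243): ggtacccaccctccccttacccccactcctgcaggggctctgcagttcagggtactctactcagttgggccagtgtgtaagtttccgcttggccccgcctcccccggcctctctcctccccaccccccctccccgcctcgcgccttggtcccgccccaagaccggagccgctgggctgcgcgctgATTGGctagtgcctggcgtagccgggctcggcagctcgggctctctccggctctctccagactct
Pcdh20 (minus strand, chr14:88471397-88471646): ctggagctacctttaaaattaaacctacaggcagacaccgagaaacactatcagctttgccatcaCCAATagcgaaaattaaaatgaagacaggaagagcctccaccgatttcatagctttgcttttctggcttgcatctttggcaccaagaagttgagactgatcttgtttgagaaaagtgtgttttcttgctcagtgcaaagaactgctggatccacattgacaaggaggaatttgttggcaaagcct
Pcdh10 (plus strand, chr3:45378148-45378397): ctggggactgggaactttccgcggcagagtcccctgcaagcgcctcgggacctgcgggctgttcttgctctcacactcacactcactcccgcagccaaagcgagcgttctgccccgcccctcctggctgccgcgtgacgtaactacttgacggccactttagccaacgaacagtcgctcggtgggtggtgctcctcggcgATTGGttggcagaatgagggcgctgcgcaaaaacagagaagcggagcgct
Pcdh9 (minus strand, chr14:93890680-93890929): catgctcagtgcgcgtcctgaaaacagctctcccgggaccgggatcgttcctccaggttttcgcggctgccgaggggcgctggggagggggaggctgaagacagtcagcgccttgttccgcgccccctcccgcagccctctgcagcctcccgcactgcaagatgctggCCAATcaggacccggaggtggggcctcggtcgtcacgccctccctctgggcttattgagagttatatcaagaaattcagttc

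The 5 windows differ in base composition. GC content was 68% in Pcdh18, 69.2% in Pcdh19, 63.2% in Pcdh10 and 63.6% in Pcdh9, above the median of 52.4% over all 32851 windows of the table, whereas Pcdh20 stood at 42.4% with 3 CpG dinucleotides. CCAAT on either strand occurred in 14 of the 22 members' windows and in 33.8% of all windows. The letters TGACAG, the core recognised by MEIS factors, occurred in the windows of Cdh20, Cdh15 and Cdh6 and in 15.9% of all windows. The homeodomain core TAATTA was found in no member's window and in 4.84% of all, and the nuclear receptor core AGGTCA in that of Cdh18 and in 14.0% of all. The letters TATAAA were found for Pcdh15 and Pcdh8, and in 12.4% of all windows. Such a match only describes the sequence.

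Of the 35 members, 18 exceeded 10 RPM, the threshold for expression in a cell, in at least 10% of the cells of at least 1 group and are described with their values. Another 9 exceeded it in 1 to 9 cells each, the most being the 9 cells with Cdh6. Cdh16, Cdh17 and Cdh23, which belong to epithelium and hair cells, had reads but never exceeded 10 RPM. No read at all was counted for Cdh1 (E-cadherin), Cdh3 (P-cadherin), Cdh5 (VE-cadherin of endothelium), Cdh19 or Cdh26. For Cdh5 the group levels were therefore below 3 counts of each total, and no cell in any group held 3 of the 6 endothelial markers. All 5 delta-2 protocadherins were among the 18, against 5 of 13 type II cadherins.

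**Figure D1:**
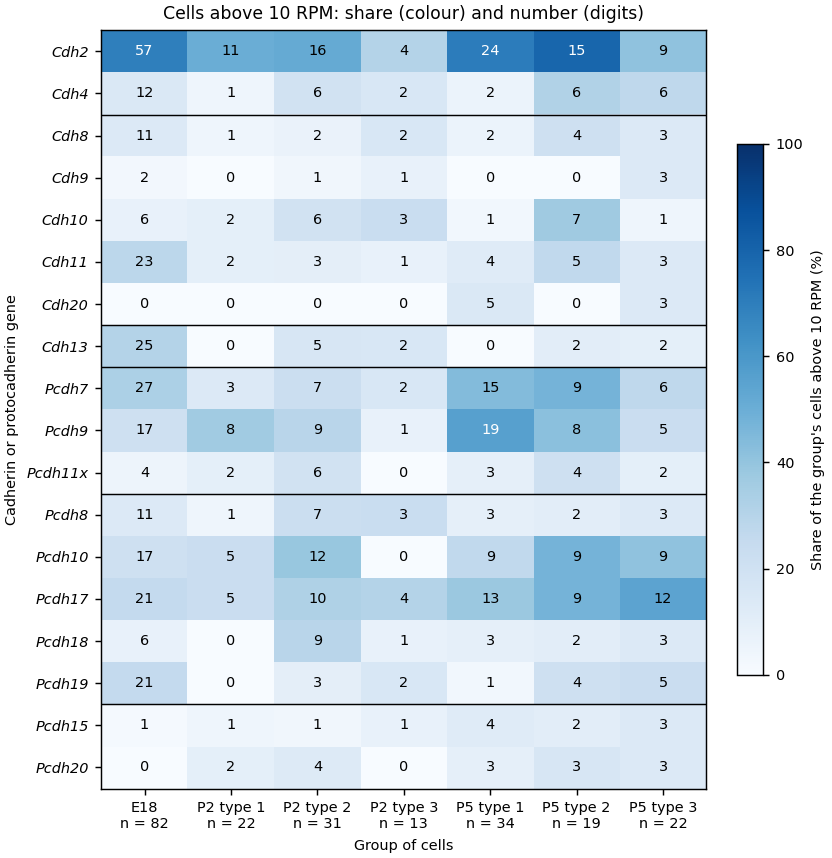
Cells above 10 RPM for the 18 members with full values (rows, lines between classes) in the 7 groups of cells (columns, with the number of cells). Colour gives the share of the group in percent and the digits give the number of cells; Cdh2 is the row with the highest share in 5 of the 7 columns.

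Cdh2 (N-cadherin), the neural type I cadherin, was the member seen in most cells. It exceeded 10 RPM in 57 of 82 E18 cells (69.5%, exact 95% binomial interval 58.4 to 79.2%), with a lowest value of 0, a median of 30.9 and a highest of 2041 RPM. At P2 the cells above it numbered 11 of 22, 16 of 31 and 4 of 13 in types 1 to 3, and at P5 24 of 34, 15 of 19 and 9 of 22. The pooled level, which is the summed count over the summed mapped read pairs of the group, was 159.9 RPM at E18 (exact 95% Poisson interval 159.04 to 160.81). It was 92.7, 87.7 and 27.5 RPM in types 1 to 3 at P2 and 179.1, 76.02 and 76.3 RPM at P5. In P5 type 3 INs a single cell held 68.9% of the Cdh2 counts and the level without it was 24.8 RPM.

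Cdh4 (R-cadherin), the other type I cadherin that was expressed, was rarer. It exceeded 10 RPM in 12 of 82 E18 cells, in 1, 6 and 2 cells of P2 types 1 to 3 and in 2, 6 and 6 cells of the P5 types. Its pooled level was 10.8 RPM at E18 and 3.60, 89.8 and 34.8 RPM in P5 types 1, 2 and 3. The P2 type 1 level of 14.7 RPM came from 1 cell at 304.3 RPM, without which it was 0.0142 RPM. Cdh15 (M-cadherin), known from muscle, exceeded 10 RPM in 3 cells.

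Type II cadherins were each found in a minority of cells. Cdh11 was the most frequent at E18, above 10 RPM in 23 of 82 cells with a pooled level of 34.7 RPM, and in P5 types 1 to 3 it was seen in 4, 5 and 3 cells at 10.3, 19.2 and 15.2 RPM. Cdh8 exceeded 10 RPM in 11 E18 cells and in 2, 4 and 3 cells of the P5 types, with 37.6 RPM at E18 and 2.70, 33.6 and 26.3 RPM at P5. At P2 the Cdh8 level of 104.4 RPM in type 3 INs came from 2 cells and that of 44.1 RPM in type 1 INs from 1 cell at 1000.3 RPM. Few cells thus carried each of these levels.

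Among type 2 INs, Cdh10 exceeded 10 RPM in 6 of 31 P2 cells and 7 of 19 P5 cells (36.8%, 16.3 to 61.6%). Among type 1 INs it did so in 2 of 22 and 1 of 34. Its pooled levels were 106.4 and 59.95 RPM in type 2 INs at P2 and P5 and 11.4 and 3.09 RPM in type 1 INs. Without the highest cell of each group the P5 levels were 27.3 RPM in type 2 and 0.448 RPM in type 1 INs. Cdh10 lies on chromosome 15 from 18818947 to 19014236, plus strand, and has 10051 bases of exon in the GENCODE annotation.

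Cdh20 was above 10 RPM in none of the 82 E18 and none of the 66 P2 cells, with a highest value of 4.43 RPM among them. At P5, 5 type 1 INs and 3 type 3 INs exceeded that level, with highest values of 431.0 and 400.3 RPM, and none of the 19 type 2 INs did, the highest being 1.12 RPM. For 0 of 19 cells the limit of 3 cells allows a share of up to 15.8%. Cdh9 was above 10 RPM in 3 of 22 P5 type 3 INs and had no read in P5 type 1 or type 2 INs. The other type II cadherins, Cdh6, Cdh7, Cdh12, Cdh18, Cdh22 and Cdh24, were above 10 RPM in 2 to 9 cells.

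Cdh13 (T-cadherin), which lacks a cytoplasmic domain and is held in the membrane by a GPI anchor, stood higher at E18 than at P2 or P5. It lies on chromosome 8 from 118283733 to 119324921, plus strand, and no other gene overlaps its exons. At E18 it exceeded 10 RPM in 25 of 82 cells (30.5%, 20.8 to 41.6%), whose median was 522.4 RPM, with a highest value of 2104 RPM. At P2 5 type 2 and 2 type 3 INs exceeded it, and at P5 2 and 2. In type 1 INs it was above 10 RPM in 0 of 22 cells at P2, with a highest value of 1.34 RPM, and in 0 of 34 cells at P5, with a highest value of 4.97 RPM. Pooled levels were 154.4 RPM at E18, 0.402, 55.1 and 21.7 RPM in P2 types 1 to 3 and 0.338, 8.11 and 5.38 RPM in P5 types 1 to 3. Cells above 10 RPM for Cdh13 were thus a minority at E18, few at P2 and P5, and not seen among type 1 INs. For 0 of 34 cells the limit of 3 cells allows a share of up to 8.82%.

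**Figure D2:**
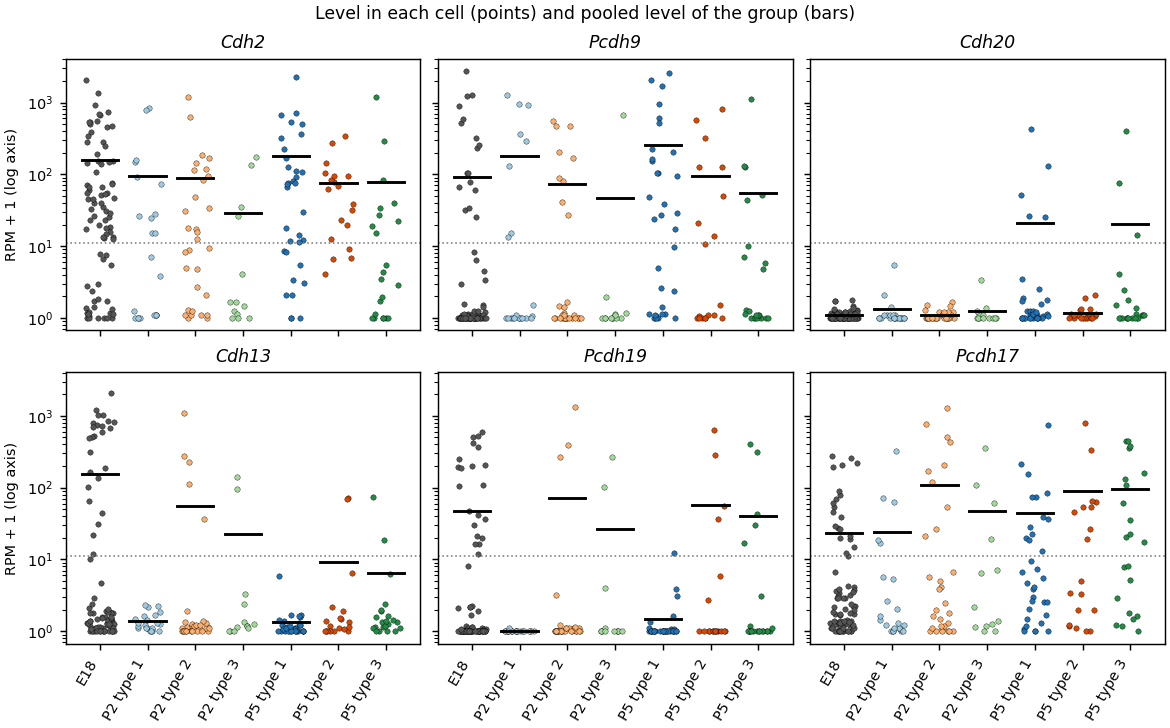
Level of 6 members in each cell by group, as RPM + 1 on a log axis, with the pooled level as a bar and 10 RPM as a dotted line. Cdh13 and Pcdh19 lie at or near 0 in type 1 INs of both ages, with 1 of the 56 type 1 cells above 10 RPM for Pcdh19 and none for Cdh13, and Cdh20 exceeds the line only at P5.

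Among the delta-1 protocadherins, Pcdh9 was the member with the highest pooled level in type 1 INs. It lies on chromosome 14 from 93013410 to 93890679, minus strand. Of the E18 cells, 17 exceeded 10 RPM for Pcdh9. At P2, 8 of 22 type 1 INs, 9 type 2 INs and 1 type 3 IN did. At P5 the numbers were 19 of 34, 8 and 5. Pooled levels were 92.4 RPM at E18, 178.4 (176.6 to 180.1), 71.6 and 46.5 RPM at P2 and 252.6 (250.9 to 254.2), 93.2 and 54.6 RPM at P5. Per kilobase of exon it was the highest member in type 1 INs of both ages, at 26.3 and 37.2 RPM per kb, ahead of Cdh2 at 11.5 and 22.2 RPM per kb. Within set D of the P5 type 1 INs the order turned, with Pcdh9 at 92.1 RPM and Cdh2 at 192.3 RPM. In P2 type 3 INs 1 cell held 99.7% of its counts.

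Pcdh7, the other abundant delta-1 member, was spread over the types. It exceeded 10 RPM in 27 of 82 E18 cells at a pooled 85.98 RPM, in 3, 7 and 2 cells of the P2 types at 35.6, 47.4 and 7.99 RPM, and in 15, 9 and 6 cells of the P5 types at 127.3, 161.4 and 65.03 RPM. The exons of Pcdh7 share 2235 bases with a gene on the opposite strand, and whether counting used strand is not given in the sources used here. Pcdh11x exceeded 10 RPM in 4 E18 cells and in at most 6 cells of any postnatal group, the 6 being P2 type 2 INs at a pooled 50.7 RPM. Pcdh1 exceeded it in 4 cells.

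The delta-2 protocadherins included the members most unevenly spread over the types. Pcdh19, known in people for X-linked epilepsy, exceeded 10 RPM in 21 of 82 E18 cells (25.6%) at a pooled 46.4 RPM. In type 1 INs it did so in 0 of 22 cells at P2, where 1 cell held the only read, and in 1 of 34 cells at P5, at 11.3 RPM. At P2 it did so in 3 type 2 and 2 type 3 INs, at 69.6 and 25.7 RPM, and at P5 in 4 and 5, at 56.3 and 39.8 RPM. At P2, Pcdh18 exceeded it in no type 1 IN and in 9 of the 31 type 2 INs, with pooled levels of 0.0407 and 80.6 RPM. In P2 type 3 and P5 type 2 INs a single cell held 99.8% and 97% of the Pcdh18 counts.

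Pcdh17 and Pcdh10 were the delta-2 members in most cells. Pcdh17 exceeded 10 RPM in 21 E18 cells, in 5, 10 and 4 cells of P2 types 1 to 3 and in 13 of 34, 9 of 19 and 12 of 22 cells of the P5 types. Its pooled levels were 22.4 RPM at E18, 22.9, 107.1 and 45.6 RPM at P2 and 43.7, 88.03 and 93.8 RPM at P5. Pcdh10 exceeded 10 RPM in 17 E18 cells, in 5 of 22, 12 of 31 and 0 of 13 cells at P2 and in 9 of 34, 9 of 19 and 9 of 22 cells at P5. Its level in P2 type 3 INs was 0.204 RPM and in P5 type 3 INs 68.02 RPM. Pcdh8, whose product is known as arcadlin, was above 10 RPM in 11 E18, 11 P2 and 8 P5 cells.

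Pcdh15 and Pcdh20 lie outside the delta groups. Pcdh15, known from the tip links of hair cells, exceeded 10 RPM in 1 of 82 E18 cells, in 1 cell of each P2 type and in 4, 2 and 3 cells of the P5 types. Pcdh20 exceeded it in 0 of 82 E18 cells, where 1 cell had reads, in 2 type 1 and 4 type 2 INs at P2 and in 3 cells of each P5 type. Its pooled level was 59.8 RPM in P2 type 2 INs, and it had no read in the 13 P2 type 3 INs. Pcdh12 exceeded 10 RPM in 1 cell.

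The next question was how the members differ between the 3 types of one age. A fold here is the log2 of the first pooled level over the second, each raised by 1 RPM. Differences of at least 2-fold were counted where over 5% of the compared cells exceeded 10 RPM for the gene, a filter that 15 members met at P2 and 17 at P5. A member that passed through the type in which it is high had to differ, so the shares are given beside those of all genes passing the same filter and read no further. The 3 comparisons of one age use the same cells and are not independent of each other, whereas the P2 and P5 comparisons share none.

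In P5 type 1 INs, members were more often lower than higher. There, 10 of 17 members were at least 2-fold lower, against 23.7% of all genes, and 3 were higher (Cdh2, Cdh20 and Pcdh9), against 23.6%. The median fold over the members was -1.65 on the log2 scale and over all genes tested 0.04. At P2, 6 of 15 were lower, against 31.9% of all genes, and 2 were higher (Cdh11 and Pcdh9), against 19.4%. Without the cells that hold an MGE marker 3 were higher and 4 lower of 14 at P2, against 21.5% and 34.2% of all genes. The P2 medians were -0.13 over the members and -0.25 over all genes tested. The 6 lower at P2 (Cdh10, Cdh13, Pcdh17, Pcdh18, Pcdh19 and Pcdh20) were all lower at P5 too, and each stayed 2-fold lower at both ages without the highest cell of each side. Without the cells that hold an MGE marker, Pcdh20 stood at -0.39 at P2, and at P5 Pcdh17 stood at -0.99 and Pcdh11x at -0.67. Over all genes passing at both ages, 9.39% were lower in type 1 INs at both.

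At P2 the largest of these 6 differences were those of Pcdh18, Pcdh19 and Cdh13. The log2 fold of Pcdh19 was -5.93 at P2 and -5.05 at P5, and at P5 it was between -7.37 and -3.26 within each library set. At P2 Pcdh19 exceeded 10 RPM in 4 of 10 cells with Lhx6 and 1 of 56 without, and MGE markers were present in 2 of the 22 type 1 INs, 9 type 2 INs and 4 type 3 INs. Without those cells Pcdh19 stood at -3.40 at P2, where it no longer met the filter, and at -4.89 at P5. Pcdh18 stood at -6.43 and -2.85. Cdh13 stood at -5.12 and -2.54, the P5 value resting on levels of 0.338 against 6.79 RPM. Cdh10 stood at -2.90 and -3.12, Pcdh20 at -2.52 and -1.65, and Pcdh17 at -1.99 and -1.04. Of the 13 members called at P5, 4 kept their call within each of sets B, C and D (Cdh4, Cdh8, Pcdh10 and Pcdh19). Within set B, which holds 11 type 1 and 4 other INs, 7 members were higher and 10 lower, with 50.6% of all genes higher. There Pcdh18 (3.34), Cdh10 (3.25) and Pcdh20 (2.84) were higher, and Cdh13 (0.05) and Pcdh17 (0.04) were near level. Of the 6 members lower at both ages, Pcdh19 alone kept its P5 call within set B. Within set C Cdh13 stood at -0.10. At P5 only, Cdh4 (-3.80), Cdh8 (-3.07), Pcdh10 (-1.84) and Pcdh11x (-1.77) were also at least 2-fold lower. Pcdh11x stood at -0.55 without the cells with markers of another cell type and at -0.74 within set C.

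Pcdh9 was the one member at least 2-fold higher in type 1 INs at both ages, 1 of 15 beside 5.98% of all genes passing at both. Its log2 fold was 1.42 at P2 (178.4 against 66.2 RPM) and 1.75 at P5 (252.6 against 74.5 RPM). Without the highest cell of each side the folds were 1.12 and 1.78. Within the library sets the P5 fold was 3.71 in set B, 1.02 in set C and 0.37 in set D, so in set D alone it was below 2-fold. The P5 fold of Cdh2 was 1.22, and within set C it was -1.41. That of Cdh20 was 1.00, from set C (5.55), while within sets B and D it was -2.39 and -0.39 and without cells with markers of another cell type 0.82. The P2 fold of Cdh11, 2.11, came from 1 cell, without which it was -0.21.

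**Figure D3:**
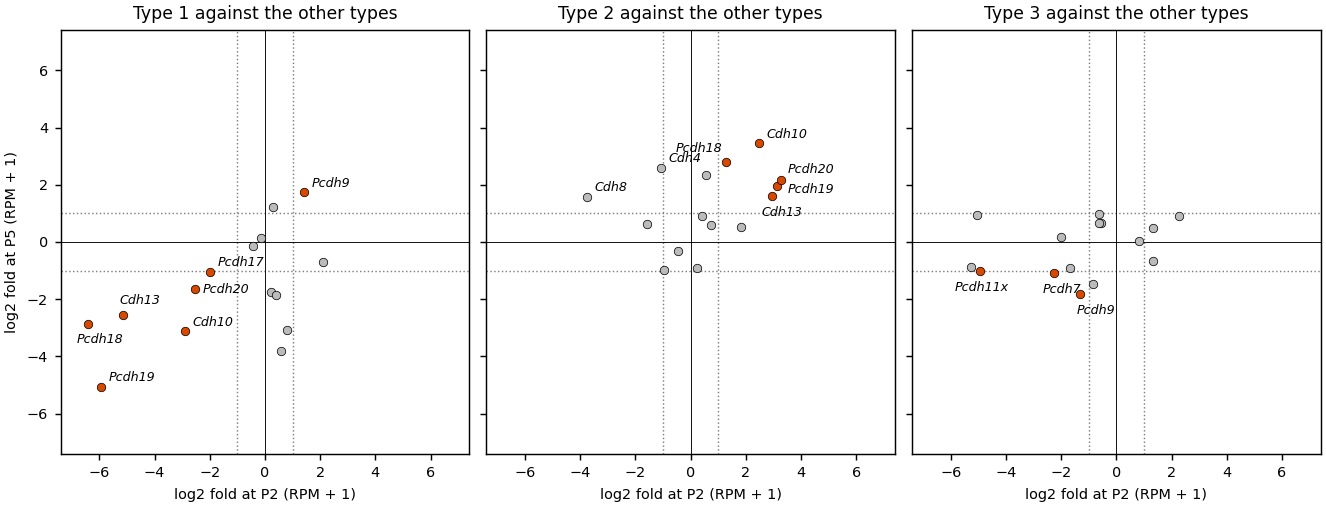
Log2 fold of each type over the remaining types at P2 (horizontal) and P5 (vertical), for the 15 members that passed the filter at both ages. Orange points are 2-fold or more in the same direction at both ages (dotted lines mark 2-fold), 7 members in type 1, 5 in type 2 and 3 in type 3; named grey points in the type 2 panel are Cdh4 and Cdh8, with opposite signs at the 2 ages.

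In P5 type 2 INs, pooled over the library sets, more members were higher than lower. At P5, 8 of 17 members were at least 2-fold higher, against 23.5% of all genes, and 1 was lower (Cdh20), against 21.8%. The median fold was 0.98 over the members and 0.03 over all genes tested. At P2, where all genes leaned the same way, 6 of 15 were higher, against 28.1% of all genes, and 3 were lower, against 19.9%. Members higher at both ages were Cdh10 (2.49 and 3.45), Cdh13 (2.96 and 1.59), Pcdh19 (3.13 and 1.97), Pcdh18 (1.29 and 2.78) and Pcdh20 (3.26 and 2.15). Over all genes passing at both ages, 8.06% were higher in type 2 INs at both. Cdh10, Cdh13 and Pcdh19 remained past 2-fold at both ages without the highest cell of each side. The P5 folds of Pcdh18 and Pcdh20 without it were -0.98 and 0.85. Higher at P5 only were Cdh4 (2.59), Pcdh11x (2.32) and Cdh8 (1.58), and higher at P2 only was Pcdh17 (1.84).

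Library sets and other scalings bear on the type 2 values. At P5, 8 of 18 members were higher and 10 lower within set B, against 21.9% and 58.7% of all genes. Within set C 6 and 8 of 15 were, against 27.3% and 46.4%, and within set D 11 and 3 of 18, against 30.4% and 21.5%. At P5, 14 of 19 type 2 INs came from set D, within which the fold of Pcdh19 was -1.10. Cdh8 stood at -2.58 within set B and -5.03 within set C, and Cdh10 at -3.07 within set B. Cdh13 stood at -0.06 within set B, 0.03 within set C and 1.35 within set D. Pcdh18 stood at -3.26 within set B and -1.85 within set C, and Pcdh20 at -2.69 within set B, where there were only 2 type 2 INs in B and 3 in C. Of the 9 members called, Cdh4, Cdh20 and Pcdh11x kept their call within each set. With counts divided by the total on genes, or with edgeR TMM or DESeq2 factors, 8 members were higher and 3 lower at P5. Of all genes 17.9% to 21.8% were then higher and 24.9% to 29.6% lower. With edgeR TMM or DESeq2 factors at P2, 5 were higher and 4 lower. All 5 P5 type 2 INs with markers of another cell type (astrocyte in 3 cells, oligodendrocyte in 1, Cajal-Retzius cell in 1) were left out in an alternative. It gave 6 members higher and 2 lower, against 22.2% and 27.5% of all genes, with Cdh4 at 0.16 and Pcdh11x at 0.68. The summed astrocyte and radial glia markers stood at a pooled 1665 RPM in P5 type 2 INs and 258 RPM in type 1 INs. Cells with MGE markers were more frequent among P2 type 2 INs (9 of 31) than among type 1 INs (2 of 22). Without them 4 members were higher and 3 lower of 14 past the filter at P2, against 30.6% and 21.9% of all genes. Pcdh18 then stood at 0.22 at P2 and -1.52 at P5, and Pcdh19 no longer met the filter at P2. At P5 without them 6 members were higher and 3 lower, against 23.9% and 23.2% of all genes, and Pcdh11x stood at 0.94.

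Type 3 INs had fewer genes above 10 RPM per cell and fewer reads on genes (a median of 2802950 at P2 and 2620270 at P5), and the background was one-sided. With the counts of every cell thinned to the same number of mapped read pairs the numbers were 3 higher and 7 lower at P2 and 0 higher and 6 lower at P5. At P2, 7 of 15 members were at least 2-fold lower, against 53.4% of all genes, and 3 were higher, against 16.0%. At P5, 5 of 17 were lower, against 45.7% of all genes, and 0 were higher, against 14.7%. Pcdh7 (-2.27 at P2 and -1.09 at P5), Pcdh9 (-1.31 and -1.83) and Pcdh11x (-4.93 and -1.02) were lower at both ages. Without the cells that hold an MGE marker none of the 3 was 2-fold lower at both, as Pcdh9 stood at -0.90 at P2, and Pcdh7 at -0.92 and Pcdh11x at -0.21 at P5. Over all genes passing at both ages, 27.9% were lower in type 3 INs at both. Within set C alone the P5 folds of Pcdh7 and Pcdh9 were 2.15 and 0.63, and that of Pcdh11x was 0.44 within set B and -0.93 within set D, and 0.04 without the cells with markers of another cell type. Within set B Pcdh7 stood at -0.67. At P2 Pcdh10 stood at -5.04, and Pcdh20 had no read, against 6 of 53 other cells above 10 RPM. A count of 0 of 13 cells allows a share of up to 23.1%, and the other cells stood at 11.3%, so this call rests on too few cells to set the shares apart.

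The type 3 calls depended on the scale, the library set and the cells with markers of another cell type. Without the latter 3 members were higher and 4 lower at P5, against 15.4% and 44.9% of all genes. Within sets B, C and D 5, 7 and 4 members were higher and 10, 6 and 8 lower. Without the cells that hold an MGE marker 3 were higher and 4 lower at P5, against 15.1% and 45.5% of all genes. At P5 the total count on genes gave 7 members higher and 2 lower, edgeR TMM 5 and 3, and DESeq2 factors 4 and 3. Of all genes 29.7%, 20.9% and 20.1% were then higher and 32.7%, 40.3% and 41.3% lower. At P2 edgeR TMM gave 4 higher and 6 lower, and DESeq2 factors 4 and 5. There 23.6% and 28.0% of all genes were higher and 48.1% and 44.9% lower. The median fold of all genes at P5 moved from -0.78 to 0.01 with the total count on genes. Pcdh17 was above 10 RPM in 12 of 22 P5 type 3 INs, the highest share of any member there, at a log2 fold of 0.66. Of the 3 members higher at P2, Pcdh18 rested on 1 cell and stood at -4.42 without it, and Pcdh8 stood at -4.79 without the cells that held an MGE marker.

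From E18 to P5, both drawn from library sets B, C and D, Cdh13 had the largest fold on the main scale and over all cells. It exceeded 10 RPM in 25 of 82 cells at E18 and 4 of 75 at P5, with pooled levels of 154.4 and 3.62 RPM, a log2 fold of -5.07. Within the library sets the fold was between -7.26 and -4.50. MGE markers also differed between these ages, Lhx6 being above 10 RPM in 40 of 82 E18 cells and 3 of 75 P5 cells. Without all cells above 10 RPM for an MGE marker, which left 19 E18 and 71 P5 cells, the fold of Cdh13 was -4.92. That of Pcdh15 was then 4.93, so the order of the 2 depends on the cells entered. Among E18 cells Cdh13 exceeded 10 RPM in 14 of 40 cells with Lhx6 and 11 of 42 without. Without the cells that hold markers of another cell type the fold of Cdh13 was -4.85. Of the 10 members past 2-fold between these ages, 8 stayed so without those cells, Cdh4 standing at 0.63 and Cdh8 at -0.75. Within each of sets B, C and D, 5 stayed so (Cdh4, Cdh13, Cdh20, Pcdh15 and Pcdh20).

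Several members were higher at P5. Of the 17 members passing the filter, 6 were at least 2-fold higher, against 11.9% of all genes, and 4 were lower, against 19.6%. Without the cells that hold an MGE marker 7 were higher and 5 lower, against 25.2% and 21.2% of all genes. Pcdh15 stood at 0.778 RPM at E18 and 42.99 RPM at P5 (log2 fold 4.63, 1 and 9 cells above 10 RPM). Cdh20 stood at 0.103 and 14.8 RPM (3.84, 0 and 8 cells) and Pcdh20 at 0.0279 and 8.74 RPM (3.24, 0 and 9 cells). Pcdh17 was above 10 RPM in 21 of 82 and 34 of 75 cells, at 22.4 and 67.7 RPM (1.55), and at 3.21 without the cells that hold an MGE marker. The same alternative gave 4.93 for Pcdh15, 3.90 for Cdh20 and 3.15 for Pcdh20. Cdh4 stood at 10.8 and 33.9 RPM (1.57), and at 0.04 without the cells that hold an MGE marker. Pcdh18 stood at 7.80 and 24.6 RPM (1.54), at 0.51 without the highest cell of each age and at -1.18 without cells with an MGE marker.

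Lower at P5 beside Cdh13 were Pcdh8 (17.5 and 5.12 RPM, -1.60, but 0.81 without cells with an MGE marker), Cdh11 (34.7 and 13.9 RPM, -1.26) and Cdh8 (37.6 and 16.6 RPM, -1.13). Within set C, with 9 E18 cells, the fold of Cdh11 was 4.14. Cdh2, at 159.9 and 126.8 RPM, differed by less than 2-fold (-0.33). The median fold of all genes was -0.17, and it was 0.04, 0.12 and 0.23 with the total on genes, edgeR TMM and DESeq2 factors, which gave 9 members higher and 3, 2 and 2 lower. Of all genes 16.3%, 18.1% and 20.9% were then higher and 16.0%, 14.1% and 12.5% lower. P2 levels are set beside these without a fold. Pcdh20 was at 32.6 RPM, Cdh13 at 30.7 RPM, Pcdh15 at 5.00 RPM and Cdh20 at 0.215 RPM over all P2 cells.

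**Figure D4:**
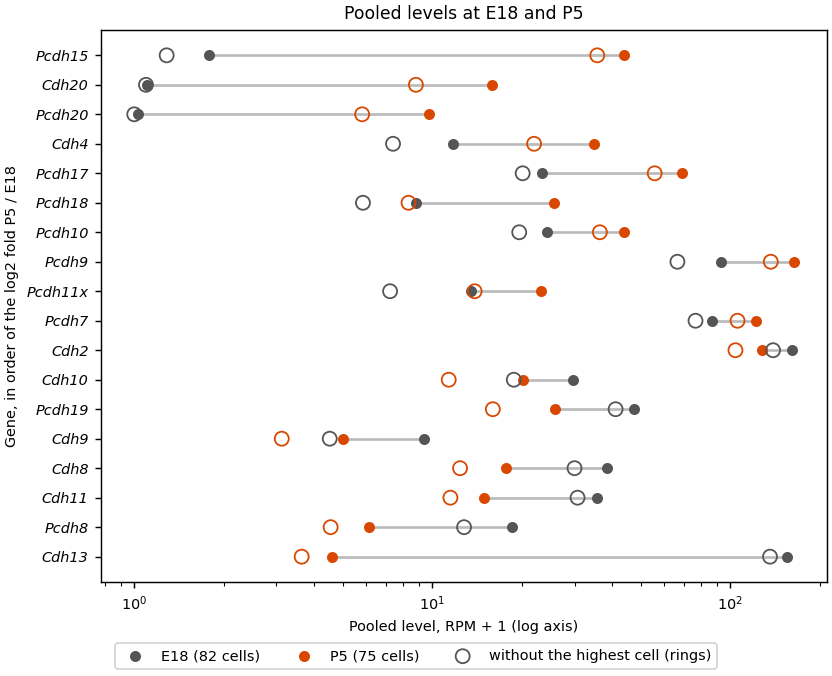
Pooled level of the 18 members at E18 (grey, 82 cells) and P5 (orange, 75 cells) as RPM + 1 on a log axis, in the order of the log2 fold, with rings for the level without the highest cell of that age. Cdh13, at the bottom, stood at 154.4 RPM at E18 and 3.62 RPM at P5, and the 3 genes at the top (Pcdh15, Cdh20 and Pcdh20) were below 1 RPM at E18.

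Within E18, where the labels give no subtype, members were set beside transcripts of MGE and of caudal eminence INs. Only some members and factors are given here. Pcdh10 exceeded 10 RPM in 16 of 52 cells with Sst and in 1 of 30 without. Pcdh19 did so in 17 of the 52 and 4 of the 30, and Pcdh9 in 7 of the 52 and 10 of the 30. By Nr2f2, a factor of caudal eminence INs, Pcdh19 was found in 1 of 25 cells with it and 20 of 57 without, Cdh13 in 3 and 22, and Cdh4 in 7 and 5. By Prox1, another such factor, Pcdh19 was found in 2 of 10 cells with it and 19 of 72 without, Cdh13 in 2 and 23, and Cdh4 in 2 and 10. These counts come from 1 pool of brains at each age and are descriptive.

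A cell held few members at a time. The mean number above 10 RPM was 3.37 ± 2.05 (SD over 82 cells) at E18, with a median of 4 and a range of 0 to 9. At P2 it was 2.09 ± 1.44, 3.61 ± 1.58 and 2.38 ± 1.66 in types 1 to 3, and at P5 3.29 ± 1.53, 4.95 ± 2.30 and 3.82 ± 2.08. The number of all genes above 10 RPM differed as well, with medians of 2495.5 at E18, 1834, 2482 and 1437 at P2 and 2258, 2738 and 2101.5 at P5. Per 1000 such genes the means were 1.25 at E18, 1.12, 1.55 and 1.63 at P2 and 1.43, 1.67 and 1.82 at P5. On that scale type 3 INs stood highest at both ages and type 1 INs lowest. The SD over cells was 0.602 to 1.14, and with 1 pool per age these orders were not tested.

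**Figure D5:**
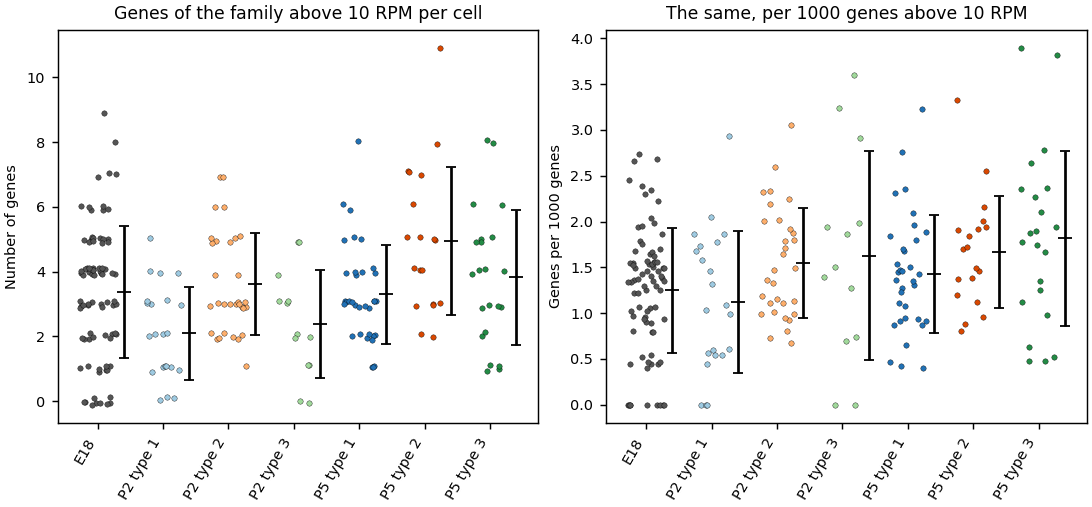
Number of members above 10 RPM in each cell (left) and the same per 1000 genes above 10 RPM in that cell (right) by group, with the mean and SD over cells beside the points (small vertical jitter on the left). Means on the left run from 2.09 in P2 type 1 to 4.95 in P5 type 2 INs and the ranges of all groups overlap.

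Combinations of members were mostly particular to a cell. Over all cells, 72.2% held a set of members seen in no other cell, and 14 cells held none of the 35. No other gene list was counted in this way, so these shares cannot be set apart from those of other sparsely detected genes. All 31 P2 type 2, all 19 P5 type 2 and all 22 P5 type 3 INs had a set that no other cell of their group shared. In P5 type 1 INs the commonest set, Cdh2 with Pcdh9 and no other member, was seen in 3 of 34 cells. As pairs, Cdh2, above 10 RPM in 48 of 75 P5 cells, and Pcdh9, in 32, were together in 22. This is 45.8% of those with Cdh2 and 68.8% of those with Pcdh9. Whether a pair was together more often than its single shares give was not tested. Pcdh10, in 27 P5 cells, and Pcdh17, in 34, were together in 16, 59.3% of those with Pcdh10 and 47.1% of those with Pcdh17. At E18 Cdh13, in 25 of 82 cells, and Pcdh19, in 21, were together in 13, 52% and 61.9% of those with each. Cdh2, in 57 E18 cells, and Pcdh7, in 27, were together in 22.

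The partners of cadherins inside the cell were given the same counts, to be read against the shares of all genes given above for each comparison, such as 53.4% lower in P2 and 45.7% lower in P5 type 3 INs. Of 11 catenins and linkers, 10 passed the filter at P2, with 4 higher and 2 lower in type 1, 2 and 5 in type 2 and 3 and 5 in type 3 INs. At P5, 9 passed, with 1 and 1, 2 and 1, and 0 and 3. Of 9 WAVE complex genes, 8 passed at P2, with 1 higher and 2 lower in type 1, 2 and 1 in type 2 and 1 and 4 in type 3 INs. At P5 all 9 passed, with 0 and 2, 5 and 1, and 1 and 5. Ctnnb1 (beta-catenin) exceeded 10 RPM in 30 of 82 E18 cells and in 13 of 34, 9 of 19 and 10 of 22 cells of P5 types 1 to 3. Ctnna2, the neuronal alpha-catenin, did so in 38 E18 cells and in 17, 11 and 14 cells of the P5 types. Ctnna1 exceeded it in 4 E18 cells and in 2, 2 and 1 cells, and Ctnna3 in 3 E18 cells and in 9, 4 and 3 cells. Neither Ctnnb1 nor an alpha-catenin differed by 2-fold in the same direction at both ages in any type.

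Ctnnd2 (delta-catenin), which binds the juxtamembrane part of classical cadherins, was higher in type 2 INs at both ages (log2 fold 1.89 and 1.22), above 10 RPM in 64.5% of type 2 and 25.7% of other cells at P2 and in 89.5% and 50% at P5. Jup (plakoglobin) was higher in type 1 (1.36 and 1.81) and lower in type 2 INs (-2.97 and -1.26), on few cells. In type 1 INs 2 of 22 P2 cells (9.09%, as among the other P2 cells) and 3 of 34 P5 cells exceeded 10 RPM for Jup. Ctnnd1 (p120-catenin) was lower in type 3 INs (-1.16 and -2.45). Its P5 level was 0.426 RPM in type 3, 0.555 RPM in type 1 and 18.5 RPM in type 2 INs, so at P5 type 1 INs were as low. Of the WAVE complex, Wasf1 was lower in type 1 (-2.18 and -1.37) and higher in type 3 INs (1.53 and 1.47). The share of type 3 INs above 10 RPM for Wasf1 was near that of the others (38.5% against 35.8% at P2, 45.5% against 43.4% at P5). Abi1 (-5.11 and -4.06), Abi2 (-2.17 and -1.36) and Wasf2, with no read in type 3 INs, were lower in type 3 INs. Wasf2 was higher in type 2 INs (3.42 and 1.08), on 3 of 31 and 2 of 19 cells above 10 RPM. The folds of these partner genes were not recomputed under the alternatives used for the members. From E18 to P5, 2 of 11 catenins and linkers were higher and 2 lower, and 0 of 9 WAVE genes higher and 2 lower.

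The clustered protocadherins, 58 genes of the related gene cluster, were mostly too rare to compare, with 6 past the filter at P2 and 10 at P5. In P5 type 1 INs 6 of the 10 were at least 2-fold lower and 1 higher, with a median of -1.36 beside -1.65 for the members. In P5 type 2 INs 5 were higher and 3 lower, with a median of 1.08 beside 0.98. In P5 type 3 INs 4 were higher and 4 lower, with a median of -0.12 beside 0.05. The shares over all genes in these comparisons are those given for the members, and the difference between the lists was not tested.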

How the data were processed

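Single Htr3a-GFP+ cells were captured on a Fluidigm C1 chip, amplified with SMARTer chemistry and made into Nextera XT libraries, which do not mark strand. By the submitters' processing notes, the authors mapped read pairs to GRCm38 with TopHat2, counted them per gene with HTSeq 0.6.1 and deposited raw counts, with a coefficient per cell. No molecular identifiers were used, so counts are read pairs and not molecules. Here RPM was the count times that coefficient, and mapped read pairs its inverse. Gene names came from a table of identifiers, which matched 42462 of 43629 genes, and exon lengths and overlaps from GENCODE M21. No cell was removed, and doublets were not called.

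Counts were pooled over the cells of a group. With 1 sample per age no test was made. Levels have exact 95% Poisson intervals and shares exact 95% binomial intervals. The 26 folds that were called, passed the filter and had 20% or more of the higher side's cells above 10 RPM were recomputed under every alternative. Members with 10% or more of some group's cells above 10 RPM were given in full, and pathway genes were named where they differed by 2-fold in the same direction at both ages, with the alpha- and beta-catenins. A gene that met this rule is not reported here. The members, lists and rules were chosen with earlier results of these data known. The letters CCAAT and TATAAA, and the comparison without cells that hold an MGE marker, were added after values had been seen. Alternatives changed the pseudocount, filter, fold, scale, averaging, depth, library set, expression threshold and cells entered. Analyses ran in Python 3.11.15 (scipy 1.17.1, numpy 2.4.6, pandas 2.3.3, and matplotlib 3.10.9 for figures) and R 4.3.3. DESeq2 1.42.0 and edgeR 4.0.16 gave only scaling factors of pooled counts. The steps were tested on simulated data.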

Additional observations from a re-analysis of the deposited data

Results flagged for a closer look

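Cdh4 and Cdh8 in type 2 INs had opposite signs at the 2 postnatal ages, each past 2-fold. The log2 fold of Cdh4 was -1.07 at P2 and 2.59 at P5. That of Cdh8 was -3.75 at P2 and 1.58 at P5. The difference between the ages was not tested, and all P2 cells come from 1 library set that holds no P5 cell. Without the highest cell of each side the folds were -0.09 and 2.21 for Cdh4 and -3.62 and 2.34 for Cdh8. Without the cells that hold markers of another cell type the P5 fold was 0.16 for Cdh4 and 1.88 for Cdh8, and within library sets B and C that of Cdh8 was -2.58 and -5.03. Cdh4 exceeded 10 RPM in 6 of 31 type 2 INs and 3 of 35 other cells at P2, and in 6 of 19 and 8 of 56 at P5. Cdh8 exceeded it in 2 of 31 and 3 of 35 cells at P2, and in 4 of 19 and 5 of 56 at P5.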

How the results depend on the processing

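Of 334 values of the 26 folds with 20% or more of the higher side's cells above 10 RPM, 324 kept their sign. Called folds resting on fewer cells are not in this count, and many alternatives only rescale the same cells. Among the folds left out, Pcdh18 (3.34), Cdh10 (3.25) and Pcdh20 (2.84) in P5 type 1 INs changed sign within set B. Of 10 that did not, 9 came from a single library set and 1 from leaving out cells with an MGE marker. Within set B they were Pcdh17 in P5 type 1 (0.044) and Cdh8 (-2.58) and Cdh10 (-3.07) in P5 type 2 INs. Within set C they were Cdh2 in P5 type 1 (-1.41), Cdh8 in P5 type 2 (-5.03), Pcdh7 (2.15) and Pcdh9 (0.63) in P5 type 3 INs, and Cdh11 from E18 to P5 (4.14). Within set D it was Pcdh19 in P5 type 2 (-1.10), and without cells with an MGE marker Pcdh8 in P2 type 3 INs (-4.79). The cause was not tested. Calls kept within every one of sets B, C and D numbered 4 of 13, 3 of 9 and 2 of 5 in P5 types 1 to 3 and 5 of 10 from E18 to P5. Of all 64 called folds, 57 stayed past 2-fold without the highest cell of each side and 4 changed sign, Cdh11 in P2 type 1 (-0.21) and type 2 (0.29) and Pcdh18 in P2 type 3 (-4.42) and P5 type 2 INs (-0.98). Without cells with an MGE marker 50 stayed past 2-fold and 4 changed sign, Pcdh8 in P2 type 3 INs, Pcdh18 in P5 type 2 INs (-1.52), and Pcdh8 (0.81) and Pcdh18 (-1.18) from E18 to P5.

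Most counts of members stayed within 1.5 times. With no filter 13 members were past 2-fold in P2 type 1 and 14 in P5 type 2 INs. With a filter of 25% of the cells, which leaves fewer members, the counts were 2, 1 and 3 in P2 types 1 to 3, 4, 0 and 2 in P5 types 1 to 3 and 1 from E18 to P5. With means of log2(RPM + 1) they were 2 and 4 in P2 types 2 and 3, 6 and 5 in P5 types 1 and 2 and 4 from E18 to P5. At 4-fold they were 5 and 6 in P2 types 2 and 3, 6 and 1 in P5 types 1 and 3 and 4 from E18 to P5. In P5 types 2 and 3 they were 18 and 15 within set B, 14 and 13 within set C and 14 and 12 within set D. With 10 RPM added they were 2 in P5 type 3 INs and 5 from E18 to P5, and in P5 type 3 INs 9 with the total on genes and 8 with edgeR TMM. In P5 type 2 INs the 0 under the 25% filter leaves no test to set beside it, as each age is 1 sample.

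The mean number of members per cell with at least 1 read pair was 9.01 at E18, 7.45, 10.1 and 7.31 in P2 types 1 to 3 and 8.71, 10.6 and 10.1 in P5 types 1 to 3. Above 1 RPM it was 3.23 and 3.77 in P2 types 1 and 3 and 4.97 and 6.05 in P5 types 1 and 3. Of 1224 shares of cells, 1053 stayed within the interval given. No paired analysis was possible because no groups share replicate numbers. Folds within library sets B, C and D stand in for a fit by set at E18 and P5. Small groups limit the shares, since 0 of 13 cells allows up to 23.1%.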

Other observations

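Outside the comparisons, rarer members had their highest levels in few cells. Pcdh1, a delta-1 protocadherin, reached a pooled 40.7 RPM in P2 type 1 INs, where 2 of 22 cells exceeded 10 RPM, with 532.2 RPM in its highest cell. Cdh6 reached 16.97 RPM in P5 type 2 INs, from 1 cell at 386.2 RPM, with 9 cells above 10 RPM in all. Cdh7 and Cdh17 had reads in 100 and 95 cells, with 4 and 0 cells above 10 RPM, so a read in many cells went with a high level in few.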
